A study of Mus musculus with 2 samples.

Results

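Long reads of gastrocnemius muscle RNA placed outside the annotated genes were collected into 2505 unannotated loci on mouse chromosomes 1 to 19. Members were all deposited gene entries of the class Intergenic on the autosomes with at least 1 read. Entries on the same strand whose spans shared at least 1 base were joined into 1 locus, within and between the libraries. Replicate 1 held 1680 such entries with 1767 transcript models, among 21862 gene entries and 80416 models of all classes. Replicate 2 held 1314 entries with 1395 models, among 20767 entries and 74962 models. The joined loci numbered 1661 with reads in replicate 1 and 1293 with reads in replicate 2.

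The study read RNA of the gastrocnemius, a mainly fast-twitch calf muscle, as long reads in 2 libraries. Both are labelled as biological replicates of a single group, female mice of the F1 hybrid strain B6CASTF1/J aged 18 to 20 months, and each began from 2 µg of RNA. The labels name no treatment, transgene or second group, and they give the same donor record for both libraries without saying how many animals were used. Comparisons between the libraries therefore measure only the difference between these samples, which may be technical. Replicate 1 held 1175829 reads and replicate 2 held 1017384, of which 1117891 and 975696 lay in annotated endogenous genes. Levels below are CPM, the reads of a locus scaled to 1000000 annotated reads of the library, and a count of 0 allows up to 3 reads, or 2.68 CPM in replicate 1 and 3.07 CPM in replicate 2. In the check of the tissue, 6 fast muscle markers summed to 304262 and 336877 CPM and 7 slow markers to 640 and 4870 CPM, and the markers of other cell types summed to far less than the fast ones. In replicates 1 and 2, 5 fibroblast genes summed to 325 and 451 CPM, 2 erythroid genes to 170.0 and 113, 3 Schwann cell genes to 58.1 and 23.6, 3 endothelial genes to 49.2 and 32.8, and 2 adipocyte genes to 6.26 and 7.17. Of 4 macrophage genes 3 were read (45.6 and 13.3 CPM in all, Cd68 at 0), and of 2 satellite cell genes 1 was read (0.895 and 1.02 CPM, Pax7 at 0). The summed slow markers were higher in replicate 2 and the summed macrophage and Schwann cell markers in replicate 1, with no test, and their part in any difference below was not tested. In RNA of a whole muscle, fewer cells of a type and less RNA per cell cannot be told apart.

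Transcripts outside the annotated genes have several known sources. Long non-coding RNAs can be transcribed from their own promoters and spliced. RNA polymerase can run past the annotated end of a gene, and annotated ends can be too short. Processed pseudogenes are intronless copies of messenger RNAs that reverse transcription put back into the genome, often with the untranslated tail of the message, and a read of the parent message can align to such a copy.

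Of the 20 loci with the most reads, 6 began at the last base of a processed pseudogene, the first and the second among them. Another 11 touched no GENCODE M21 gene on their own strand. The last 30 coding bases of Gapdh, the glycolytic enzyme glyceraldehyde-3-phosphate dehydrogenase, and of Pgk1, the glycolytic enzyme phosphoglycerate kinase, are shown from the GENCODE M21 transcripts, 5′ to 3′. Beside them stand the last 30 bases of 4 annotated pseudogenes at whose last base an intergenic locus began. Capitals mark the parent's stop codon and the bases of the copies at the same place.
Gapdh: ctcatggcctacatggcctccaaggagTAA
Gm12033: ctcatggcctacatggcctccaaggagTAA
Gm12671: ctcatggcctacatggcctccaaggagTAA
Pgk1: cctggggtggatgctctcagcaatgttTAG
Pgk1-rs7: tggggtggatgctctcagcaatgttTAGta
Gm5537: ttcctggggtggatgctctcagcaatgttT
The stretches from Gm12033 and Gm12671 are letter for letter those of Gapdh. Gm12033 is annotated at chr11:20335012-20336013 and Gm12671 at chr4:91851668-91852669, both on the minus strand. Pgk1-rs7 at chr12:10898986-10900240 runs past the stop codon of Pgk1, and Gm5537 at chr3:58102996-58104247 stops inside it.

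A different kind of locus began near the start of a gene that RefSeq lists and GENCODE M21 lacks. The windows below run from 250 bases before to 50 bases from the RefSeq start of 3 such long non-coding RNAs (RefSeq, GRCm38.p6, 5′ to 3′ on the gene's strand). They are shown because a spliced intergenic locus began inside each. Capitals mark the first exon of the locus's model with the most reads, as far as it lies in the window, and at Gm36149 that exon runs on past the window. Gm38768 (chr6:14608201-14608500, plus strand) and Gm36149 (chr5:111490630-111490929, plus strand) belong to spliced loci with the most reads. Gm31285 (chr11:67143895-67144194, minus strand) was chosen after its values were seen.
Gm38768: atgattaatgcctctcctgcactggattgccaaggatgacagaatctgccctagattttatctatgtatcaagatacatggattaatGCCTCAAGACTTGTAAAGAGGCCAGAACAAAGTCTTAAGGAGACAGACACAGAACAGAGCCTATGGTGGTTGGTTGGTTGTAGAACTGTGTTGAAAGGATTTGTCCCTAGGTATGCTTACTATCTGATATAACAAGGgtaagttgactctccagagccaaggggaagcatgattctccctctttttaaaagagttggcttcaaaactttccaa
Gm36149: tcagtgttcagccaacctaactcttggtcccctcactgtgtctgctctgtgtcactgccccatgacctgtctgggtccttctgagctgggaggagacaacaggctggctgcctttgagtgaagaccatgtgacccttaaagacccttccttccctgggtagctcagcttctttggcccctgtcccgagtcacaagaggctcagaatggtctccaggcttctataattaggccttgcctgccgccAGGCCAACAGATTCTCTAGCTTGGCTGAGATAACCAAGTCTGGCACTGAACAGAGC
Gm31285: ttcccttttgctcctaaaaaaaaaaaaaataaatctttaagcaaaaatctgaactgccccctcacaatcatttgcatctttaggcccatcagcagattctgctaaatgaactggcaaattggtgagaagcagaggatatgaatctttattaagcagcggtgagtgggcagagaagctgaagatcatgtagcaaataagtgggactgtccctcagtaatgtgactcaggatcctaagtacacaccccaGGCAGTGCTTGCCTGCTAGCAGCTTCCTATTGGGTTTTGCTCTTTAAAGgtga
The commonest model of the locus at Gm38768 began 163 bases before the RefSeq start in replicate 1 and 140 bases before it in replicate 2. The first exon printed ends 27 bases before the RefSeq start, which falls in the first intron of that model. At Gm36149 it began 6 bases before the RefSeq start in replicate 1 and 21 bases after it in replicate 2. At Gm31285 it began 3 and 13 bases before it.

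Most loci were rare. Of the 2505, 1717 (68.5%) held 1 read over both libraries, 707 held 2 to 9 reads and 81 held 10 or more. The 81 fullest (3.23% of the loci) took 52.7% of all intergenic reads. Intergenic reads made up 0.396% of autosomal reads in replicate 1 (4463 of 1127873, 95% Wilson interval 0.384 to 0.407%) and 0.408% in replicate 2 (4048 of 993054, 0.395 to 0.420%). The difference did not pass the test (2-sided Fisher's exact test, p = 0.170), but it rested on few loci. Replicate 1 minus replicate 2 was -0.0522 percentage points without the locus with the most reads (p = 1.67e-10 by the exact test). It was 0.0302 points without loci that overlap a gene on their own strand (p = 8.21e-06 by the exact test). The 10 loci with the most reads over both libraries took 28.9% of intergenic reads in replicate 1 and 43.6% in replicate 2. Molecules amplified by PCR are not independent, so these intervals and all tests below cover counting error only.

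Most loci had reads in 1 library only, but the 1717 loci with 1 read in all could not be in both. Of the 788 loci with at least 2 reads, 449 were in both. Over all loci the 449 made up 17.9% (Wilson interval 16.5 to 19.5%), against a background of 79.0% for annotated autosomal genes with reads (11044 of 13987). Both shares include features with 1 read. The share rose with the number of reads, for loci less than for genes. Among loci with 2 reads in all, 38.9% were read in both libraries, and among annotated genes with 2 reads 46.4% were. The shares were 63.3% of 215 loci and 74.0% of 1225 genes with 3 to 4 reads, 78.9% of 142 loci and 94.1% of 1633 genes with 5 to 9 reads, and 80.9% of 47 loci and 99.7% of 1802 genes with 10 to 19 reads. With 20 or more reads, 27 of 34 loci (79.4%) were in both, against 99.9% of genes. The intervals of loci and genes did not overlap from 3 reads upward.

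**Figure D1:**
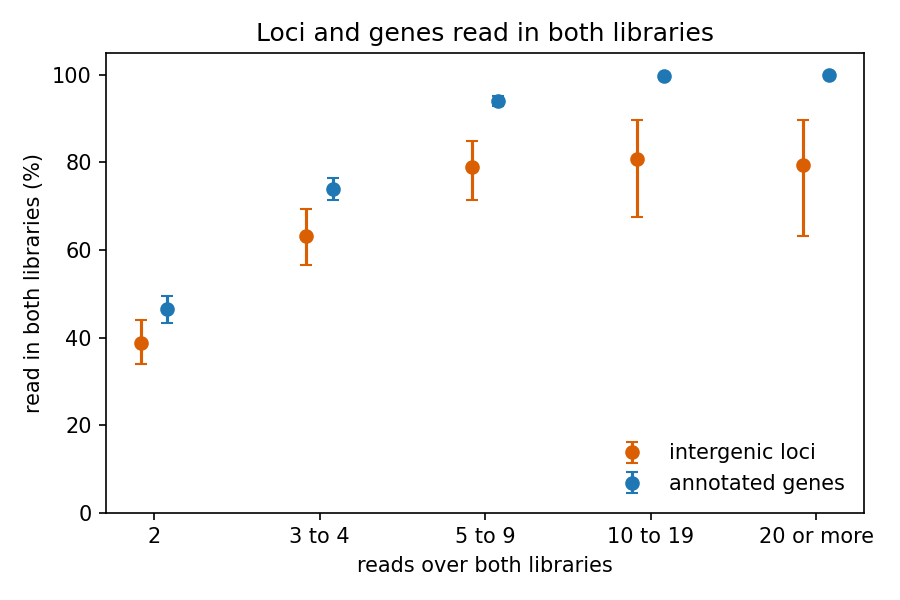
Share of intergenic loci (orange) and of annotated autosomal genes (blue) with at least 1 read in each library, by total reads over both libraries, with 95% Wilson intervals. Genes approach 99.9% while loci level off near 80%: 80.9% with 10 to 19 reads and 79.4% with 20 or more. Loci are counted on intergenic reads alone. Of the 16 loci with at least 10 reads and 0 in a library, 15 were touched there by reads of another class.

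A locus with intergenic reads in replicate 1 alone could still be covered in replicate 2 by reads that the authors' annotation gave to another class, such as Known or Antisense. Of 1212 loci with intergenic reads in replicate 1 alone, 96 (7.92%) shared more than 1 exonic base with such reads in replicate 2. Of 844 with intergenic reads in replicate 2 alone, 67 (7.94%) did so in replicate 1. A further 59 and 42 touched such reads at exactly 1 base. Counting reads of other classes that shared more than 1 base, 612 loci were read in both libraries.

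Only 81 of the 2505 loci held the 10 reads over both libraries that a test required, and 24 of these 81 (29.6%) were called between the libraries. The background was 978 of 8394 annotated genes, or 11.7%. Replicate 1 was the higher in 14 called loci (17.3%, against 4.47% of genes) and replicate 2 in 10 (12.3%, against 7.18% of genes). These calls come from a 2-sided exact binomial test at an adjusted p of 0.05 over 8475 genes and loci, and 31 loci had an unadjusted p under 0.05. A locus with 0 reads in a library reached 10 reads through the other alone and had to differ, so the share is a description. All 5 tested loci with 0 reads in replicate 1 and all 11 with 0 in replicate 2 were among the 24 called. The rest of the 24 were among the 65 tested loci read in both libraries. With the common dispersion of these libraries in an edgeR exact test, 8 loci (9.88%) were called against 0.31% of genes. Each of these 8 had 0 reads in a library and none of the 65 was called, so this share too is a description.

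Most loci were unspliced. A model with at least 2 exons was present at 292 loci (11.7%, Wilson interval 10.5 to 13.0%). Spliced models took 361 of 4463 intergenic reads (8.09%) in replicate 1 and 293 of 4048 (7.24%) in replicate 2, a difference that did not pass the test (2-sided Fisher's exact test, p = 0.143). Without the locus with the most reads the share was 2.00 percentage points higher in replicate 1 (p = 0.00243 by the exact test). That setting kept the second locus, chr4:91851487-91851668, with 0 reads in replicate 1 and 867 in replicate 2, all unspliced. The difference therefore depends on how reads were classed there. Among reads of annotated autosomal genes, 93.7% and 94.9% lay on spliced models. Single-exon intergenic models had a median length of 333 bases in replicate 1 and 562 in replicate 2, against 837 and 930 for single-exon models of annotated genes. Spliced intergenic models had medians of 1101 and 1365 bases, against 2433 and 2720 for annotated spliced models. A few deposited single-exon models, 15 in replicate 1 and 8 in replicate 2, were 1 base long and held 33 and 9 reads.

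Spliced loci were read in both libraries in 86 of 292 cases (29.5%) and single-exon loci in 363 of 2213 (16.4%), but a locus counts as spliced from 1 spliced read, so both labels rise with the number of reads. At like numbers of reads the shares were 37.7% against 39.1% with 2 reads, 65.0% against 62.9% with 3 to 4, 77.8% against 79.2% with 5 to 9 and 85.7% against 79.1% with 10 or more, and the Wilson intervals overlapped at each. Spliced models were present in both libraries at 59 loci. The libraries held 360 and 322 different introns, of which 76 were exactly the same in both among 606 in all. Of 405 intron chains, 46 were in both, and they lay at 41 loci. Introns ran from 33 to 153263 bases with a median of 1876, and 8 were shorter than 70 bases. In both libraries 130 spliced models had only 2 exons, and the longest chain had 8.

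Where single-exon loci were read in both libraries, their 3′ ends matched better than their 5′ ends. Among 376 loci whose commonest model had 1 exon in each library, the 3′ ends lay within 10 bases of each other at 83.8% and differed by a median of 1 base. The 5′ ends lay within 10 bases at 57.2%, and 98 of these loci differed there by more than 500 bases.

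The spliced locus with the most spliced reads lay at chr6:14608288-14619028 on the plus strand. It overlapped Gm38768, a long non-coding RNA of RefSeq that GENCODE M21 lacks, but was not compared with it exon by exon. It held 24 reads in replicate 1 (21.5 CPM) and 11 in replicate 2 (11.3 CPM), of which 23 and 11 were spliced. The difference was within counting error (1.75-fold higher in replicate 1, exact 95% interval 0.824 to 3.95 for replicate 1 over replicate 2, adjusted p = 0.394 by the exact binomial test). Its commonest chain, of 3 exons, held 11 reads in replicate 1 and 4 in replicate 2, and models with 4 or 5 exons were rarer. The nearest annotated gene was the pseudogene Gm44446 at 37263 bases on the opposite strand. The nearest coding gene was Ppp1r3a, the muscle subunit that brings protein phosphatase 1 to glycogen, at 94949 bases.

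**Figure D2:**
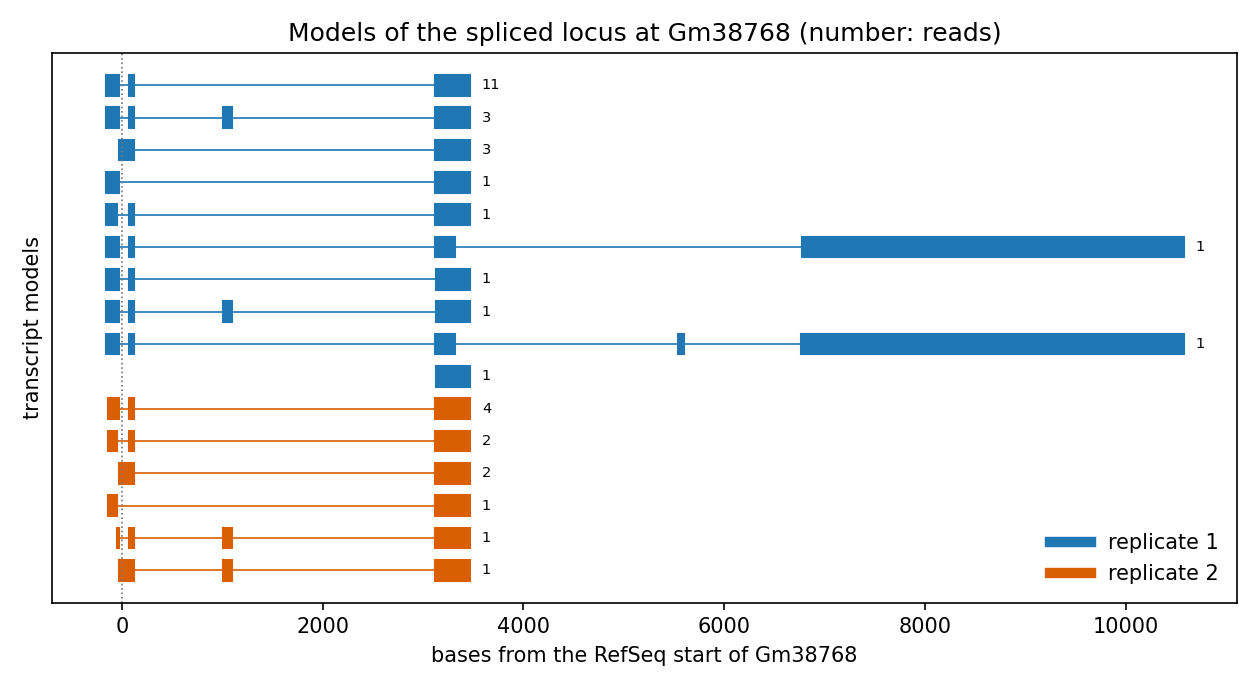
Transcript models of the locus at Gm38768 in replicate 1 (blue) and replicate 2 (orange), with exons as boxes, introns as lines, position in bases from the RefSeq start (dotted line) and the reads of each model at its right. Both libraries share the first exons and the last exon of the short form, led by 11 and 4 reads, and the 2 models with the long last exon come from replicate 1 with 1 read each.

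The 10 spliced loci with the most reads were 12 with ties, and at several of them an exon chain was the same in both libraries. The locus at chr5:111490874-111492383 (plus strand, Gm36149) held 7 and 8 reads, all spliced, and the same 3-exon form led both libraries with 6 and 5 reads. It lay 33841 bases downstream of Mn1, a transcriptional regulator. The locus at chr6:117879692-117884593 (plus strand, RefSeq Gm38882) held 7 and 5 reads, all spliced, 6401 bases downstream of the zinc finger gene Zfp239. The locus at chr14:43118786-43120242 (minus strand) held 9 and 5 reads, 695 bases downstream of the pseudogene Cdv3-ps and outside every RefSeq gene; a 2-exon model took 8 and 5 of them. The locus at chr5:139484549-139512000 (plus strand) held 7 and 5 reads, and its 2-exon model took 7 and 4. The 2-exon model began at base 139485054 in replicate 1 and 139485055 in replicate 2. Only an unspliced model with 1 read, in replicate 2, reached the first base of Zfand2a. That gene lies on the opposite strand, and the locus ran away from it. None of these 4 loci was called, with adjusted p from 0.860 to 1 by the exact binomial test.

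At 3 further loci of this list, nearly all reads were unspliced. These were chr4:133095968-133101553 (84 and 103 reads, of which 1 and 2 spliced), chr8:13218790-13222641 (5 and 13, of which 0 and 2) and chr2:74514826-74520291 (6 and 10, of which 0 and 1). The second of these overlapped the end of Adprhl1 on its own strand by 979 bases, and the last began at the last base of Lnpk, a gene of the endoplasmic reticulum. The locus at chr17:86165463-86167785 began at the first base of Prkce, on the opposite strand, and held 9 and 3 reads of which 1 and 1 were spliced, and both libraries had the same 2-exon model. The locus at chr6:108918825-108938678 held 8 and 5 reads of which 3 and 5 were spliced.

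The locus at Gm31285 (chr11:67132545-67143957, minus strand) held 2 and 5 reads and models of up to 5 exons. It lay 12465 bases upstream of the long non-coding RNA 2310065F04Rik, on the same strand. Its counts are at or near the 3 reads that 0 allows, so no level was compared.

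In all, 42 loci had the start of their commonest model inside a RefSeq promoter window whose gene GENCODE M21 lacks, and 34 of these were spliced. Among the 42 windows, searched on both strands, 8 held CAGCTG, an E-box of the form bound by MyoD and related factors, against 16.3% of the 31365 windows of the RefSeq table. The TATA motif TATAAA was in 1 (13.6% of all windows). CTANNNNTAG, which is looser than the MEF2 motif because it allows any 4 middle bases, was in 3 (3.73% of all windows). The window of Gm36149 held the last of these once, and the windows of Gm38768 and Gm31285 held none of the 3. A match says only that the letters are there.

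Loci lay close to annotated genes. The median distance from a locus to the nearest gene of GENCODE M21 on either strand was 2596 bases (quartiles 674 and 8920), 1596 loci (63.7%) lay within 5000 bases and 109 lay farther than 50 kilobases. Spliced loci were farther away, with a median of 5358 bases against 2407 for single-exon loci. To the nearest gene on the same strand the median was 8904 bases, and to the nearest protein-coding gene 4749. The nearest gene was itself read at 63.2% of the 2505 loci, where a gene near several loci counts once for each. Counted by gene, 27.3% of all 51229 annotated autosomal genes were read. Where the nearest gene was protein-coding it was read at 85.9% of loci, and 57.6% of protein-coding autosomal genes were read.

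**Figure D3:**
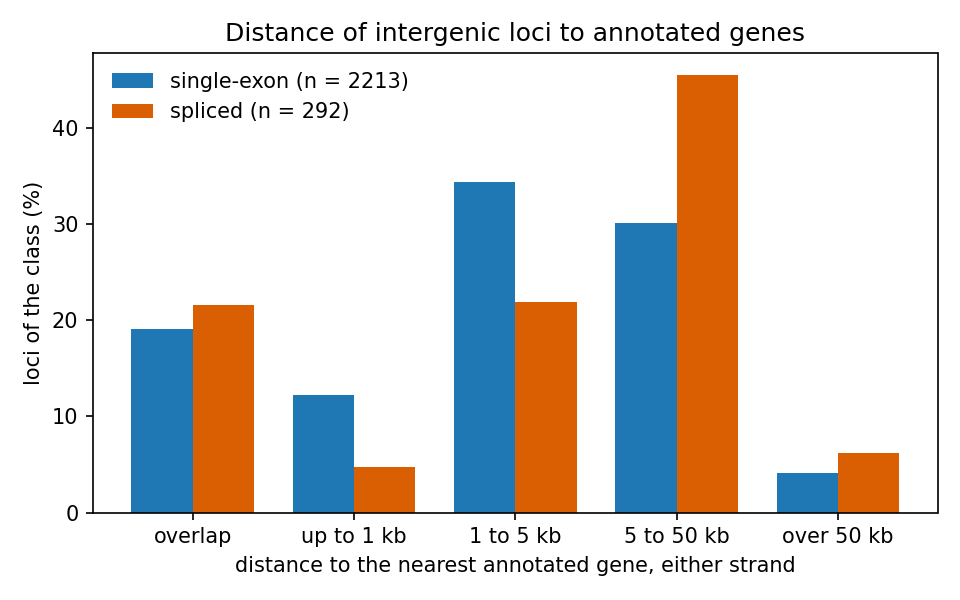
Share of single-exon (blue, n = 2213) and spliced (orange, n = 292) intergenic loci in each class of distance to the nearest annotated gene on either strand. Spliced loci are shifted to the class from 5 to 50 kilobases, and their median is 5358 bases against 2407.

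Loci were more numerous after genes than before them. Among 1110 loci that lay within 5000 bases of their nearest gene without touching it, 372 (33.5%) were downstream of it on its own strand and 323 (29.1%) downstream on the opposite strand. Upstream there were 210 (18.9%) on the same strand and 205 (18.5%) on the opposite strand, the last being the orientation of divergent promoter transcripts.

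Not every locus was clear of the annotation. Of the 2505 loci, 486 (19.4%) shared at least 1 base with a GENCODE M21 gene on either strand and 240 with a gene on their own strand. In 234 of the 240 the overlap was exactly 1 base, as it was at 242 loci whose largest overlap was with a gene on the opposite strand, where 9 others shared more. At 210 of these the locus began at the gene's last base, at 24 it ended at the gene's first base, and the other 6 shared more than 1 base. RefSeq lists a gene on the same strand, absent from GENCODE M21, at 141 loci. Of these 141, 67 were spliced, and they made up 22.9% of all spliced loci against 3.34% of single-exon loci. At 199 loci (7.94%) the RefSeq gene on the same strand was one that GENCODE M21 also has. At 291 loci (11.6%) the strand of the RefSeq gene was not known, so the 141 may be too low. At 228 loci the RefSeq gene lay on the opposite strand. No RefSeq gene lay at 1646 loci (65.7%).

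The loci that shared 1 base with a processed pseudogene were few for the reads they held. There were 69 of them, and they took 27.9% of intergenic reads in replicate 1 and 35.6% in replicate 2. A coding gene sharing at least 50% of the pseudogene's 21-base words was found for 58 of the 69, spread over 44 coding genes. Copies of Gapdh led with 11 loci and 832 and 1143 reads. Pgk1 followed with 123 and 200 reads over 2 loci. Others were copies of Cox7a2l, a factor of respiratory supercomplexes (79 and 54 reads), Map1lc3b, the autophagosome protein LC3 (39 and 0), Atp5g2, a subunit of the ATP synthase rotor (32 and 0), Tpt1 (10 and 12) and Hspb1, a small heat shock protein (10 and 0). Reads of near-identical copies cannot be placed with certainty, so the level of each such locus is uncertain.

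The position and size of these loci were set against the parents' untranslated tails, and part of the loci had both. Of the 56 that began at the last base of a pseudogene with a known parent, 51 pseudogenes ended within 3 bases of where the parent's coding part ends, as in the stop codons printed above. How often annotated processed pseudogenes end there in general was not counted. The locus spanned the rest of the parent's transcript to within 20 bases in 32 of the 56. Gapdh has 178 bases after its stop codon in the reference transcript, and the 11 loci at its copies spanned 180 to 201 bases. Pgk1 has 420, and its 2 loci spanned 421 and 426. The locus at the Myl6 copy Gm5526 spanned 145 bases against 145 left on the transcript of Myl6, an alkali myosin light chain. Loci shorter than the tail included the Map1lc3b copy Gm6055, with 240 against 1990 bases.

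**Figure D4:**
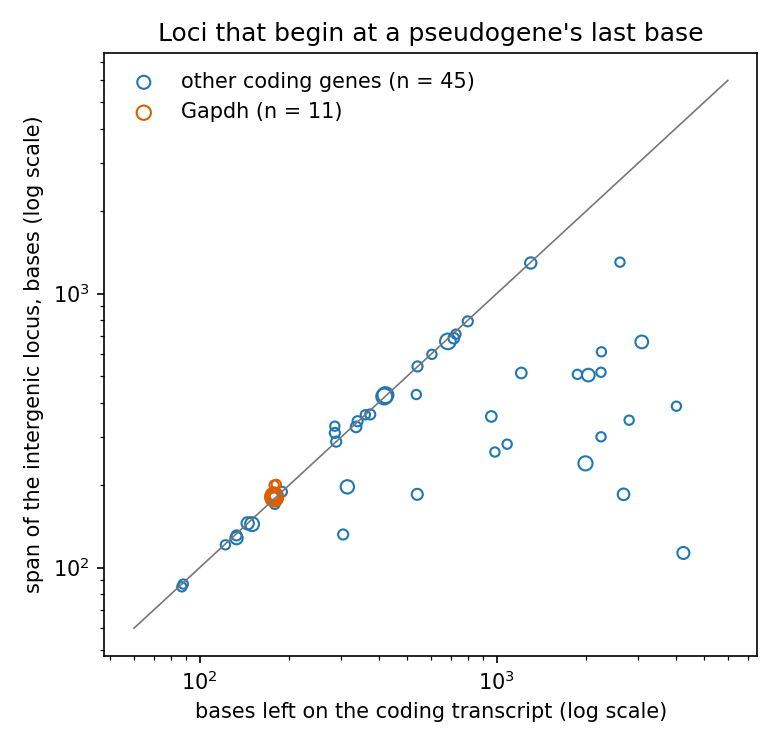
Span of each intergenic locus that began at the last base of a processed pseudogene against the bases left on the coding gene's transcript after the matching position (both log scales; 56 loci, Gapdh copies in orange, circle size by reads). The line marks equality; 32 loci lie within 20 bases of it, most Gapdh copies among them, and the rest fall below it with few exceptions.

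The fullest locus of all, chr11:20334833-20335012 (minus strand), began at the last base of the Gapdh copy Gm12033. It held 764 reads in replicate 1 (683 CPM) and 273 in replicate 2 (279.8 CPM), and it was called higher in replicate 1 by 2.24-fold (exact 95% interval 1.95 to 2.58, adjusted p = 4.26e-31 by the exact binomial test). The pseudogene itself held 334 and 347 reads, and Gapdh 53 and 43. The edgeR exact test did not make this call (adjusted p = 1), and with the reads of the pseudogene counted the locus held 1098 and 620, 1.42-fold higher in replicate 1 (1.28 to 1.57). The second, chr4:91851487-91851668 (minus strand), began at the last base of Gm12671. It held 0 reads in replicate 1 and 867 in replicate 2 (889 CPM), at least 361-fold higher in replicate 2 (adjusted p = 9.13e-303 by the exact binomial test). This locus reached the test through replicate 2 alone and had to differ, so its call is a description. There the pseudogene's own count went the other way, with 1552 reads in replicate 1 and 22 in replicate 2. Locus and pseudogene together held 1552 and 889 reads, 1.40-fold higher in replicate 1 (1.29 to 1.52). Over the 11 Gapdh copies the pseudogenes held 2804 and 934 reads. The way reads were divided between a pseudogene and the locus at its end thus differed between the libraries, and the part of the authors' read assignment in it was not tested.

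A copy of Pgk1 showed the same kind of division. The locus at chr12:10898566-10898986 (minus strand), next to Pgk1-rs7, held 38 and 127 reads and was called higher in replicate 2 (4.17-fold, 2.88 to 6.16, adjusted p = 2.73e-15 by the exact binomial test, 0.110 by the edgeR exact test). The pseudogene held 112 and 2, and together they held 150 and 129, which did not pass the test (adjusted p = 0.855). The locus at chr3:58102571-58102996 (minus strand), next to Gm5537, held 85 and 73 reads and was not called (adjusted p = 0.915). The locus at chr12:24638001-24638669 (minus strand), next to the Cox7a2l copy Gm6969, held 79 and 54 and was not called either (adjusted p = 0.702).

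Protein-coding genes had 135 loci that shared exactly 1 base with them, 122 of which began at the gene's last base. The fullest was chr11:106317540-106318592 (minus strand) at the end of Scn4a, the voltage-gated sodium channel of skeletal muscle, with 0 reads in replicate 1 and 62 in replicate 2 (63.5 CPM). On intergenic reads alone this was at least 25.8-fold higher in replicate 2 (adjusted p = 2.05e-20 by the exact binomial test). The locus reached the test through replicate 2 alone and had to differ, so this call is a description. In replicate 1 the same stretch was covered by 114 reads of Scn4a models, 111 of them sharing more than 1 base with it, and in replicate 2 by 109 and 90. Counting both classes the locus held 114 and 171 reads, still higher in replicate 2 (1.87-fold, 1.47 to 2.39, adjusted p = 5.86e-06). The locus at chr4:123216275-123222224 (plus strand) began at the last base of Nt5c1a, a cytosolic nucleotidase that forms adenosine from AMP, and held 18 and 22 reads. The locus at chr2:181141336-181144179 (minus strand) lay 3474 bases downstream of Eef1a2 in GENCODE M21 and held 17 and 20 reads. Eef1a2 is the translation elongation factor of muscle and neurons. Its RefSeq span overlapped the locus on the same strand, and 8 and 13 reads of Eef1a2 models shared exonic bases with it. Counting both classes this locus held 25 and 33 reads. Neither the Nt5c1a nor the Eef1a2 locus was called on intergenic reads (adjusted p = 0.505 and 0.567 by the exact binomial test).

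A microRNA gene of muscle also had a locus at its end. The locus at chr2:180398482-180406629 (plus strand) began at the last base of Mir133a-2, whose mature microRNA is abundant in striated muscle. Its first part overlaps the end of Mir1a-1hg, by its name the host gene of the muscle microRNA Mir1a-1, which RefSeq lists and GENCODE M21 lacks. It held 19 reads in replicate 1 (17.0 CPM) and 29 in replicate 2 (29.7 CPM), all unspliced. The difference did not pass the test (1.91-fold higher in replicate 2, 1.03 to 3.60, adjusted p = 0.156). The commonest model was 5455 bases long in replicate 1 with 19 reads and 4818 bases long in replicate 2 with 23. Their 3′ ends lay close together and their 5′ ends did not. The intergenic models next to Mir133a-2 came from replicate 2 alone, where 4 reads lay on a model of 2225 bases and 1 on a model of 250 bases that touches it. Replicate 1 was not empty there. Models assigned to Mir133a-2 itself that shared at least 1 exonic base with the locus held 19 reads in replicate 1 and 21 in replicate 2. Counting both classes the locus held 38 and 50 reads and was not called (adjusted p = 0.137 by the exact binomial test).

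Several of the fullest loci touched no GENCODE M21 gene on their own strand. The locus at chr7:28187294-28188670 (minus strand) met the last base of Dyrk1b, a protein kinase gene on the opposite strand, with its own 3′ end, and held 120 reads in replicate 1 (107 CPM) and 125 in replicate 2 (128 CPM). Each library had 1 model of it, 1377 and 1375 bases long, with the same 3′ end. The locus at chr4:133095968-133101553 (plus strand), 6822 bases downstream of the long non-coding RNA Gm26615, held 84 and 103 reads. It was called higher in replicate 2 by 1.53-fold (1.14 to 2.07, adjusted p = 0.0368 by the exact binomial test), a call that was lost with DESeq2 size factors, total counts or the edgeR exact test. In replicate 1 a model of 5255 bases held 83 of its reads, and in replicate 2 a model of 406 bases held 89.

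The locus at chr15:103619061-103619240 (plus strand) was 180 bases long, lay 30552 bases upstream of Gm49272 and held 74 and 64 reads. The locus at chr12:103364174-103366156 (minus strand), 2616 bases from the pseudogene Gm45777 and 8173 bases upstream of Asb2 on the same strand, a ubiquitin ligase subunit of muscle, held 45 and 17. The locus at chr2:152289450-152289764 (minus strand), 4064 bases from Tbc1d20, held 39 and 16. None of these 3 was called. The folds toward replicate 1 of the last pair were 2.12 (1.19 to 3.95, adjusted p = 0.0568 by the exact binomial test) and 1.95 (1.07 to 3.74, adjusted p = 0.128). The loci at chr9:78818588-78819819, chr7:126643199-126643377, chr12:16639783-16643661 and chr19:41589573-41592393 held 21 and 21, 26 and 14, 18 and 22, and 15 and 21 reads, and none was called. The locus on chromosome 9 lay 819 bases downstream of the processed pseudogene Gm8116 on the same strand. In each library 5 reads of Gm8116 models shared exonic bases with it. Gm8116 is a copy of Carnmt1, whose transcript has 3079 bases left after the matching position.

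Among loci with at least 10 reads, 5 lay farthest from any gene. The farthest, at chr4:153604030-153606899 (plus strand), was 121219 bases from Ajap1 and held 10 and 3 reads in a single unspliced model (adjusted p = 0.450 by the exact binomial test). The next, at chr1:14664665-14664854 (plus strand), was 88083 bases upstream of Gm9947, held 27 and 5 reads and was called higher in replicate 1 (4.33-fold, 1.64 to 14.4, adjusted p = 0.0121, and 0.954 by the edgeR exact test). The other 3 were the spliced loci at Gm38768, at chr6:108918825-108938678 (36417 bases) and at Gm36149. Between 3.10 (chromosome 7) and 8.04 (chromosome 4) loci were found per 100 annotated genes of a chromosome.

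Of the 24 called loci, 16 had 0 intergenic reads in a library, and at 15 of these 16 that library had reads of another class touching the locus. At 7 of the 15 such reads shared more than 1 base with the locus, and at 8 they met it at 1 base alone. Of the 24, 14 began at the last base of a gene. With reads of all classes that touched a locus counted, 8 of the 24 were called in the same direction, 2 in the opposite one and 14 were not called. Over all loci, 38 of the 227 that then reached 10 reads were called (16.7%), against 11.6% of genes.

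**Figure D5:**
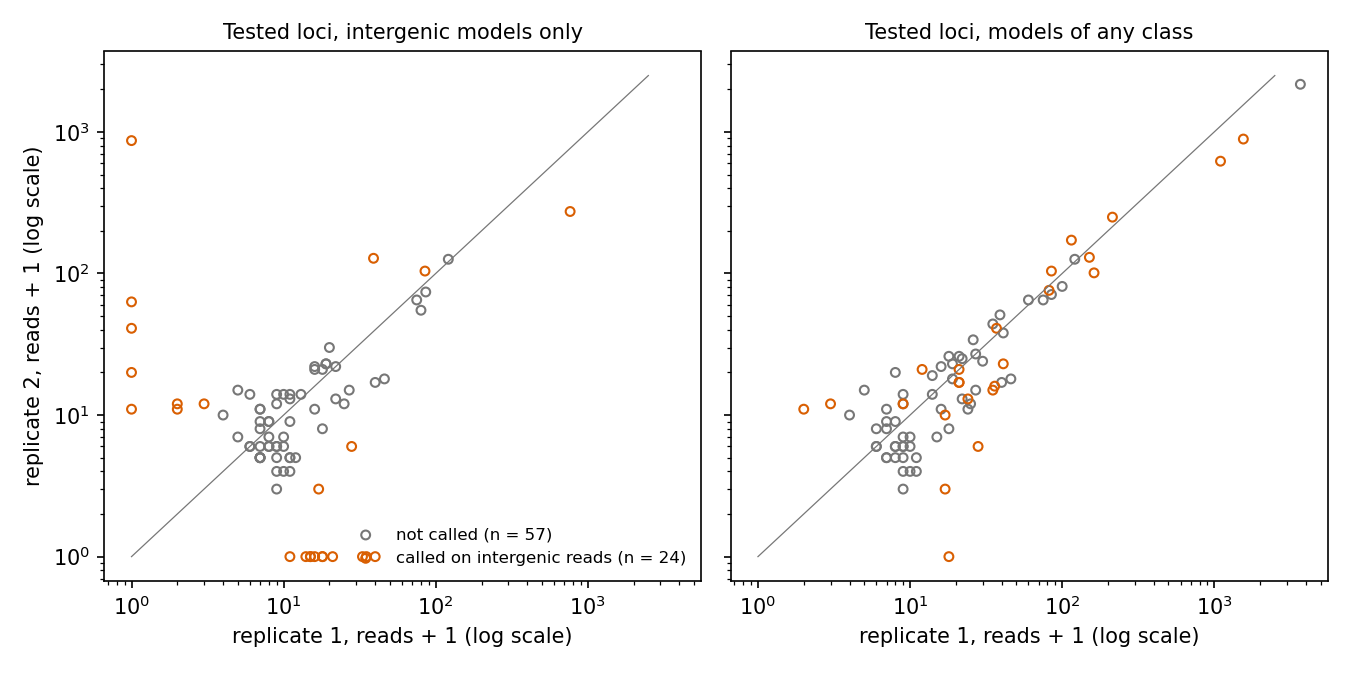
Reads in replicate 2 against replicate 1 for the 81 tested loci (reads + 1, log scales), with reads of intergenic models only (left) and reads of any class that share an exonic base with the locus (right). Orange circles are the 24 loci called on intergenic reads; those at 1 on an axis at left have 0 reads in that library, and at right 1 of them still does.

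The locus at chr3:95029712-95032342 (plus strand), 352 bases from the proteasome subunit gene Psmd4, held 0 and 40 intergenic reads. It was called (at least 16.6-fold higher in replicate 2, adjusted p = 6.86e-13 by the exact binomial test). Like the other loci of this paragraph, it reached the test through a single library and had to differ, so the call is a description. Replicate 1 had 36 reads of the class Antisense there. The spliced locus at chr2:77311873-77317035 (minus strand) held 20 and 0, of which 19 spliced in replicate 1, and replicate 2 had 16 reads of that class. The spliced locus at chr11:94127180-94138663 (minus strand) held 0 and 19, and replicate 1 had 11 of that class. With these counted, none of the 3 was called (adjusted p = 0.451, 1 and 0.156). The loci at chr14:48079136-48079375, chr5:105862521-105862701 and chr17:5816057-5816200, all on the minus strand, held 39, 34 and 32 reads in replicate 1 and 0 in replicate 2. Each began at the last base of a pseudogene, Gm6055, Gm10359 and Gm10231, which held 1, 1 and 129 reads in replicate 1 and 22, 15 and 100 in replicate 2. With these counted, none of the 3 was called (adjusted p = 0.447, 0.209 and 0.210 by the exact binomial test).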

How the data were processed

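The authors' deposited tables hold raw read counts per transcript model, 1 table per library, and per the labels the assembly is mm10. The deposited annotations place each model and give it 1 of the classes used here, added to GENCODE M21. No source used here names the aligner, its filters or versions. Members and lists were chosen with earlier results of these data known.

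Model counts were summed per locus and library. Distances were taken to GENCODE M21 gene spans, because deposited gene spans were extended by added models. Loci named are the 20 with the most reads, the 10 spliced with the most reads (and ties), the 5 per direction with the smallest p among calls of at least 2-fold, and the 5 with at least 10 reads farthest from a gene; other names were chosen after their values were seen. Features with at least 10 reads were compared by a 2-sided exact binomial test against TMM effective sizes from annotated genes (edgeR 4.0.16, R 4.3.3; factors 1.04 and 0.958), with Benjamini-Hochberg adjustment over genes and loci. No quasi-likelihood fit is possible with 1 library a side; the common dispersion (0.0624) served an edgeR exact test, and DESeq2 1.42.0 gave alternative size factors. Folds carry exact 95% intervals, and a fold against 0 uses a floor of 3 reads in that library. Parents of pseudogenes were coding genes sharing the most 21-base words. The binomial test was run on simulated counts that held counting error only, so that run could not check the calls against wider variation between libraries. The joining of loci was tested on simulated spans. Python 3.11.15, numpy 2.4.6, pandas 2.3.3 and scipy 1.17.1 were used. Base composition at 3′ ends and splice site letters were not analysed here.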

Additional observations from a re-analysis of the deposited data

How the results depend on the processing

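Most loci hold 1 read, so depth limits levels, structures and presence in a library, and every test covers counting error between 2 libraries. No paired analysis was possible because the series has 1 group. The A-rich share at 3′ ends and the canonical splice sites were not run, since no genome was used here. Joining by a shared exonic base or by 50% reciprocal overlap left the number of loci, and of loci in both libraries, within 1.5 times the reported one. At least 2 reads left 788 loci. At least 10 reads left 81, of which 65 were in both libraries, 17.3% were spliced, and the median distance was 695 bases. With reads of any class touching a locus, an alternative chosen after seeing the data, 713 loci were in both libraries and 38 were called.

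The mean intergenic share of reads was 0.242% without loci overlapping a gene on the same strand, 0.213% with at least 10 reads and 0.354% without the locus with the most reads; replicate 1 minus replicate 2 was then 0.0302, -0.0509 (p = 9.15e-16 by Fisher's exact test) and -0.0522 percentage points. The spliced share of reads under the same settings was 12.1%, 3.49% and 8.76%, and the difference -0.590, 1.24 (p = 0.0268 by the exact test) and 2.00 points. The median distance was 3278 bases without those overlapping loci, 8904 to genes on the same strand and 4749 to protein-coding genes. With 1 library left out, the number of loci ranged from 1293 to 1661, the spliced share of loci from 11.3 to 12.7%, and the median distance from 2371 to 2598 bases.

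The edgeR exact test called 8 loci, and 10 were called without loci overlapping a gene on the same strand; DESeq2 size factors, total counts, no filter on counts and reciprocal overlap kept the count within 1.5 times. Against TMM, total counts moved every log2 ratio of replicate 1 over replicate 2 by 0.12. Among the 12 named calls, 1 was lost with either other scaling, 4 with the edgeR test and 7 with reads of any class. With reads of any class, chr4:91851487-91851668 reversed from -8.49, a bound, to 0.48 on that log2 scale, because reads of Gm12671 itself then count.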
